A study of Homo sapiens with 10 samples.

Results

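Interferon-stimulated genes are the genes that cells switch on when interferon is sensed at the cell surface, and 38 of them were followed here by their gene symbols. Each symbol in the list was looked up in the gene tables of 10 RNA sequencing libraries, and 38 of 38 were found among 25593 entries. The libraries came from U2OS, a human osteosarcoma cell line, as a pair of derived lines. One line had received a control CRISPR/Cas9 construct and is labelled p53 WT. The other is labelled p53 KO, a CRISPR knockout line obtained after selection and clone identification. Each genotype is 1 line, so p53 status cannot be told apart from other differences between the lines. Each line was transfected for 96 h with control siRNA or with siRNA to SET, which encodes a chaperone of histones that also binds p53. The groups were WT with control siRNA (n = 3), WT with SET siRNA (n = 3), KO with control siRNA (n = 2) and KO with SET siRNA (n = 2). The series design text names SET as the CRISPR target while describing a p53 knockout, so groups were taken from the sample titles. The titles number the libraries of each group without saying how cultures were separated, and p-values then measure the spread between these libraries, which may be technical.

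Interferons bind receptors that activate the kinases JAK1 and TYK2, which phosphorylate STAT proteins. STAT2 and IRF9 are subunits of ISGF3, a transcription factor that binds the interferon-stimulated response element (ISRE) in promoters of antiviral genes. Many of these genes also have a low level without added interferon, and unphosphorylated STATs and other IRF factors can hold that level. p53 is known to induce some genes of this system, among them IRF9 and TLR3. No interferon was added in this study as far as the labels say, so the values below are levels without added interferon. Every library came from siRNA-transfected cells and none from untransfected cells, so an effect of transfection itself on these levels was not tested.

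Values are FPKM (fragment counts scaled to transcript length and to the mapped fragments of a library), so levels of different genes may be set side by side. Depth was not stated, and the median half-width of the authors' confidence interval was 7.44 to 9.21% of FPKM over genes at FPKM 1 or more. SET mRNA was 121, 125 and 126 FPKM in WT control libraries and 12.0 to 13.2 with SET siRNA, and 158 and 170 against 14.9 and 14.9 in KO libraries. CDKN1A, a direct p53 target that encodes p21, was 153 to 170 FPKM in WT and 6.51 and 6.84 in KO control libraries. Of 8 mesenchymal and osteosarcoma markers 6 reached FPKM 1 in every library, with VIM as the highest at up to 1465 FPKM, while COL1A2 and TWIST1 stayed under 1. The blood markers summed to 8.68 to 10.6 FPKM in WT and 4.05 to 5.25 in KO libraries, nearly all of it CD68. Epithelial markers summed to 18.2 to 21.2 FPKM in WT and 11.4 to 12.9 in KO libraries, and their part in the results was not tested.

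Most of the listed genes were low or silent in these cells. Testing required an FPKM of 1 or more in 2 or more libraries, which 24 of the 38 reached and 14 did not. DDX60 passed only through the 3 WT control libraries, so its calls against that group are not independent of the filter. OAS1 and IFIT3 passed only through WT libraries, with 0.668 to 0.774 and 0.51 to 0.9 FPKM in KO libraries. Their differences between the lines are not independent of the filter either. IFITM3 was the highest at 64.3 to 110 FPKM, followed by IFITM2 at 23.0 to 40.3, and these 2 made up 38 to 52.1% of the summed FPKM of all 38. TRIM21, ISG15, STAT2, IFI6, IRF9, PLSCR1 and IFIT1 reached 10 FPKM in at least 1 library. At the other end HERC5, the main ligase for ISG15 in human cells, and RSAD2, the antiviral enzyme viperin, did not exceed 0.0383 and 0.0211 FPKM. XAF1 was listed at 0 in 7 of 10 libraries and MX1 and MX2, the dynamin-like antiviral GTPases, reached at most 0.58 and 0.279 FPKM. Of 21 interferon ligand genes 16 were listed at 0 in every library, and the highest single value was 0.558 FPKM for IFNE.

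**Figure D1:**
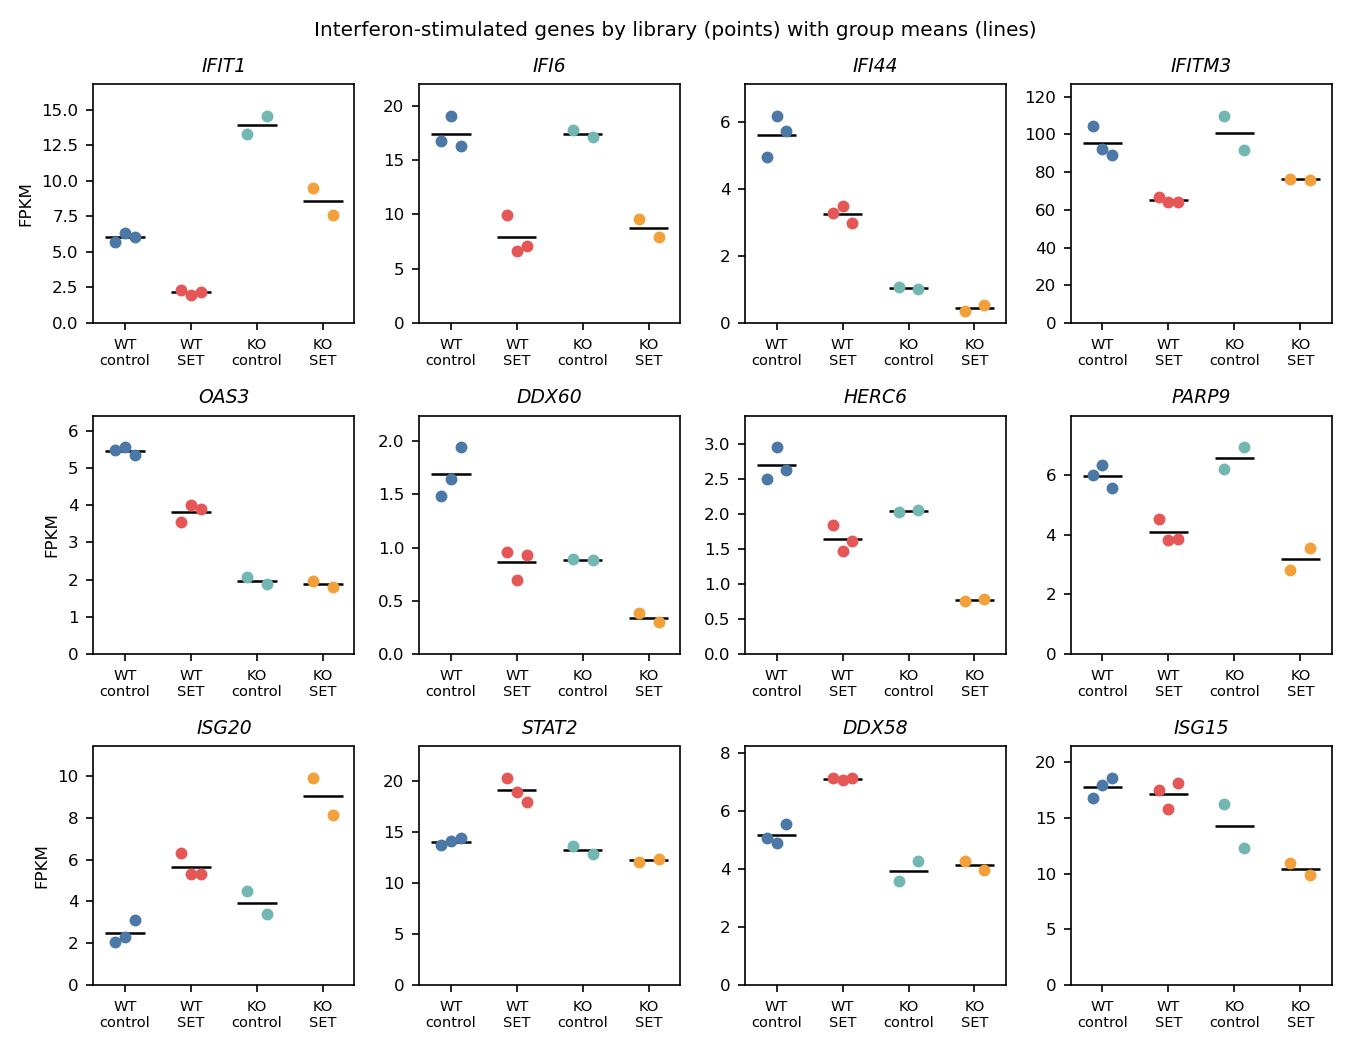
FPKM (y axis, linear from 0) of 12 interferon-stimulated genes in each of 10 libraries (points) with group means (horizontal lines), by line (WT, KO) and siRNA (control, SET). IFIT1, IFI6, IFITM3, HERC6 and PARP9 are lower with SET siRNA in both lines, ISG20 is higher in both, and STAT2 is higher in WT libraries.

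Promoter sequences are shown for 6 of the genes, because the ISRE is the site through which ISGF3 acts and the genes below differ in whether its letters stand near the start site. The stretches are the 170 bases before the RefSeq start site in build GRCh38.p14, written 5′ to 3′ on the gene's strand, with every match to the ISRE letters in capitals (GAAA, any 2 bases and GAAA again, or on the other strand TTTC, any 2 bases and TTTC). IFIT1, IFI6, DDX60 and OAS3 are genes that fell with SET siRNA in WT cells, ISG20 rose, and STAT2 rose and has no match. These 6 do not stand for the whole list. HERC6, not shown, fell and has no match either, and TRIM21, not shown, rose and has matches after its start site.
IFIT1 (chr10:89392453-89392622, plus strand): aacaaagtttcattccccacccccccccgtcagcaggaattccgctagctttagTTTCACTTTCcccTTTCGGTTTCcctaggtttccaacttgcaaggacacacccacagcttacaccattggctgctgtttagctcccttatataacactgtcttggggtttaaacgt
IFI6 (chr1:27672193-27672362, minus strand): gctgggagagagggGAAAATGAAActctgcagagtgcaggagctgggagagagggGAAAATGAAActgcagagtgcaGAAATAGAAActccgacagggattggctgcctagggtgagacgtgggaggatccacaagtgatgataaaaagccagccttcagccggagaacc
DDX60 (chr4:168318753-168318922, minus strand): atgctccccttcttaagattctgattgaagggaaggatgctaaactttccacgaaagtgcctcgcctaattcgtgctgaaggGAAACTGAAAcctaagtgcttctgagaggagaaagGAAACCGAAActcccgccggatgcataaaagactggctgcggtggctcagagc
OAS3 (chr12:112938304-112938473, plus strand): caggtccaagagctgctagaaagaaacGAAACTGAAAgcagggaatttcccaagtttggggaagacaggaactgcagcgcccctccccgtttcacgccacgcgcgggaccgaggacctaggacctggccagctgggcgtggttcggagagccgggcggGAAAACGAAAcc
ISG20 (chr15:88638846-88639015, plus strand): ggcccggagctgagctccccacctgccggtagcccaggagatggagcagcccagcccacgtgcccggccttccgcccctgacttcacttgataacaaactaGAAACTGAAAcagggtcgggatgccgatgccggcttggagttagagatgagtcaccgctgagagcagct
STAT2 (chr12:56360108-56360277, minus strand): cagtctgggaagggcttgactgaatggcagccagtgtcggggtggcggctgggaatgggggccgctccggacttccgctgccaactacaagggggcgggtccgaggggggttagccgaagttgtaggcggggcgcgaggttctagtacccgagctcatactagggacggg

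RefSeq promoter windows of 300 bases, from 250 before to 50 after the start, were matched for 30 of the 38 genes, with DDX58 found under its current symbol RIGI. The ISRE letters stood in a window of 21 of these 30 genes (70.0%), against 4.38% of 27305 genes and 3.57% of all 35116 windows. The letters TTCNNNGAA of the gamma-activated site, which reads the same on both strands and is bound by STAT dimers, stood in 10 of the 30 (33.3%), against 9.38% of genes. Neighbouring matches can overlap, as in ISG15 and TRIM21, where the matches start 6 bases apart. Among the 15 tested genes with the ISRE letters 8 fell and 4 rose with SET siRNA in WT cells, and 8 fell and 1 rose in KO cells. Of all tested genes 24.0% fell and 30.8% rose in WT cells, and 17.9% fell and 19.8% rose in KO cells. Among the 6 tested genes with a window and without the letters, which were DDX58, HERC6, IRF1, IRF9, OAS1 and STAT2, 1 fell and 3 rose in WT cells and 1 fell in KO cells. These counts describe letters in a window and were not tested against each other.

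**Figure D2:**
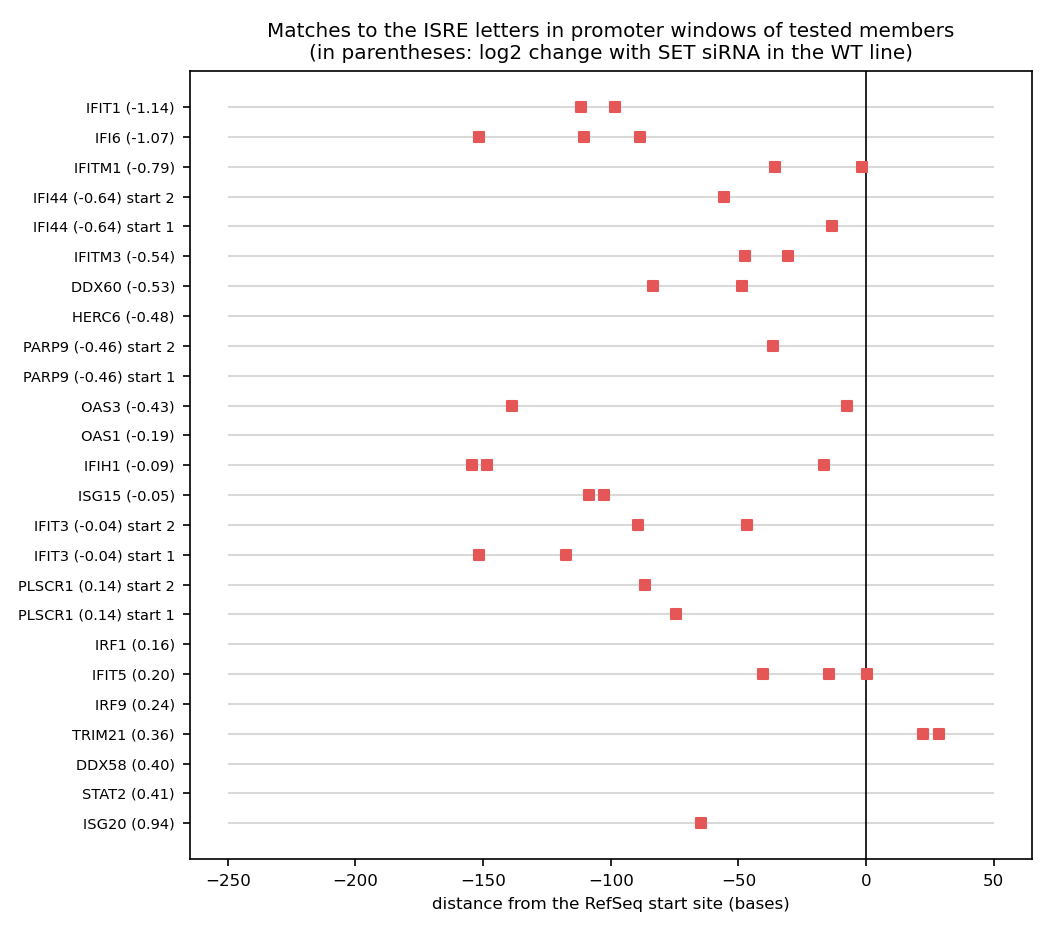
Matches to the ISRE letters (red squares, both strands) by distance in bases from the RefSeq start site (x axis, vertical line at the start) for tested genes with a promoter window (rows, grey line for the window), ordered by the log2 change with SET siRNA in the WT line given in parentheses. Matches sit before the start in IFIT1, IFI6, DDX60 and ISG20, after it in TRIM21, and STAT2, DDX58, IRF9, IRF1, OAS1 and HERC6 have none in the window.

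The first comparison asked how interferon-stimulated genes respond to SET siRNA in the WT line. IFIT1, which binds viral RNA lacking a normal cap, was 2.76-fold lower, and IFI6, a small membrane protein that counters apoptosis, was 2.21-fold lower. IFI44, DDX60, HERC6, PARP9, IFITM3 and OAS3 were lower by 1.44 to 1.96-fold in mean FPKM. ISG20, a 3′ to 5′ exonuclease, was 2.27-fold higher, and the signalling genes STAT2 and DDX58 and the ubiquitin ligase TRIM21 were 1.31 to 1.37-fold higher. In limma 12 of the 24 tested genes fell, 7 rose and 5 were not called, where 54.8% of all 14813 tested genes were called, 24.0% lower and 30.8% higher. The 12 include DDX60, whose fall here is not independent of the filter. The median log2 change was -0.24 over the tested members and 0.04 over all tested genes. The mesenchymal and osteosarcoma markers moved down as well: 4 of 6 tested fell (median log2 change -0.40), and their summed level was 2160 to 2243 FPKM in control and 1487 to 1639 in SET siRNA libraries. Their part in the result was not tested. The 7 rises became 4 with median-of-ratios scaling, and likewise without WT control library 1 or 3, WT SET siRNA library 1 or 2, or either KO SET siRNA library, each time through IFIT5, IRF9 and PLSCR1. In these bulk samples fewer cells with a transcript and less of it per cell cannot be told apart.

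The same comparison in the KO line asked which of these changes occur where p53 is labelled absent. PARP9, a partner of the ubiquitin ligase DTX3L, was 2.06-fold lower, HERC6 2.65-fold, DDX60 2.59-fold and IFI6 1.99-fold. DDX60 was under 1 FPKM in every KO library, and HERC6 in the KO SET siRNA libraries. ISG20 rose 2.29-fold and was the 1 rise, while 10 of 24 fell and 13 were not called, where 37.6% of all tested genes were called, 17.9% lower and 19.8% higher. The median was -0.25 over the tested members and 0.02 over all tested genes. Here too 4 of 6 tested mesenchymal and osteosarcoma markers fell (median -0.32), with sums of 2159 and 2300 FPKM in control and 1671 and 1834 in SET siRNA libraries, and their part in the result was not tested. The 10 falls became 6 without KO SET siRNA library 1 or without library 2, and such fits take the spread of the single library left from the other groups. Of the 12 falls in WT cells and the 10 in KO cells 8 were shared, namely DDX60, HERC6, IFI44, IFI6, IFIT1, IFITM3, PARP9 and USP18. The share of all tested genes that fell in both lines was not counted, so the 8 have no baseline here. The WT and KO responses share no library, but they share the fit's estimate of spread.

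**Figure D3:**
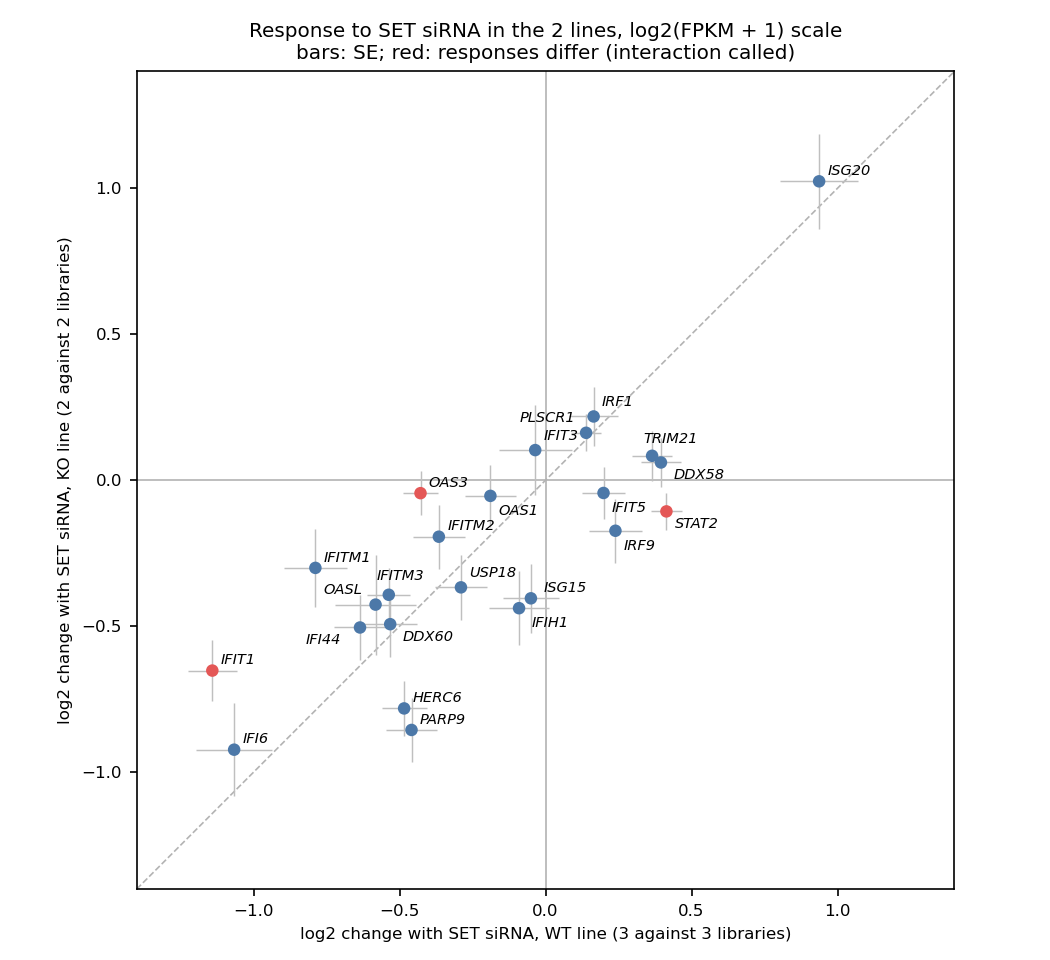
Log2 change with SET siRNA on the log2(FPKM + 1) scale in the WT line (x axis) and the KO line (y axis) for the 24 tested genes, with SE bars; the dashed line marks equal responses and red points have a called interaction. ISG20 stands alone at upper right, IFIT1 and IFI6 lie farthest to the left, and STAT2, DDX58, TRIM21 and IRF9 lie right of 0 near a KO response of 0.

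None of the 3 tested signalling factors, STAT2, IRF9 and IRF1, was called lower with SET siRNA in either line. STAT2, the interferon-specific subunit of ISGF3, was 13.7, 14.1 and 14.4 FPKM in WT control and 20.3, 18.9 and 18 in WT SET siRNA libraries. KO libraries held 13.6 and 12.9 FPKM with control and 12.1 and 12.4 with SET siRNA. Every WT SET siRNA library stood above all others, a log2 change of 0.41 (SE 0.05, adjusted p = 0.000163) in WT and -0.11 (SE 0.06, adjusted p = 0.219) in KO cells. IRF9, the DNA-binding subunit of ISGF3, went from 11.1 ± 1.35 (SD, n = 3) to 13.2 ± 0.926 FPKM (n = 3) in WT cells, a log2 change of 0.24 (adjusted p = 0.0474). That call was lost in 11 of 19 alternative settings, among them median-of-ratios scaling (adjusted p = 0.0779) and leaving out WT control library 1 (0.0577) or 3 (0.148), WT SET siRNA library 1 (0.147) or 2 (0.101), or either KO SET siRNA library (0.0582 and 0.0581). IRF1, an interferon-induced activator, was 4.91 ± 0.257 and 5.64 ± 0.594 FPKM in WT and 3.3 ± 0.489 and 3.98 ± 0.0116 (n = 2) in KO cells, and neither change was called (adjusted p = 0.122 in both). Its listed locus overlaps C5orf56 (1.06 to 2.48 FPKM) by 5249 bases, so reads there may not be separable. IRF7, the master factor of the amplifying interferon loop, stayed at or under 0.581 FPKM.

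Cytosolic RNA sensors split. DDX58, which encodes RIG-I, was 5.07, 4.91 and 5.57 FPKM in WT control and 7.13, 7.07 and 7.16 in WT SET siRNA libraries. In KO libraries it was 3.58 and 4.29 with control and 4.29 and 3.98 with SET siRNA. The WT groups did not overlap (log2 change 0.40, SE 0.07, adjusted p = 0.00108) while the KO groups did (0.06, adjusted p = 0.603). DDX60, a helicase that aids RIG-I-like receptors, was 1.49, 1.65 and 1.95 FPKM in WT control libraries against 0.961, 0.7 and 0.93 with SET siRNA, and 0.896 and 0.88 against 0.388 and 0.297 in KO libraries. It passed the filter only through the WT control libraries, so its fall in WT cells is not independent of the filter. The log2 changes were -0.53 (SE 0.09, adjusted p = 0.001) and -0.49 (SE 0.11, adjusted p = 0.0081), and the KO call was lost without KO SET siRNA library 2 (adjusted p = 0.0547). IFIH1, which encodes MDA5, was 2.04 ± 0.378 and 1.85 ± 0.204 FPKM in WT cells (adjusted p = 0.481) and fell in KO cells from 1.39 and 1.73 to 0.932 and 0.841 FPKM (adjusted p = 0.0237). Its KO call was lost without KO control library 2 (adjusted p = 0.131), KO SET siRNA library 1 (0.0713) or library 2 (0.107). DHX58, the regulatory receptor LGP2, did not exceed 0.22 FPKM.

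The IFIT family, whose members sit side by side on chromosome 10 and bind foreign RNA ends, did not move together. IFIT1 (91152322 to 91163745 in the files' coordinates) was 5.68, 6.33 and 6.05 FPKM in WT control and 2.35, 1.99 and 2.21 in WT SET siRNA libraries. It was 13.3 and 14.6 FPKM in KO control and 9.51 and 7.58 in KO SET siRNA libraries. All 4 groups were separate, with every KO library above every WT library and SET siRNA lower within each line (log2 change -1.14, SE 0.08, adjusted p = 7.22e-06 in WT and -0.65, SE 0.10, adjusted p = 0.00132 in KO). IFIT5 (91174325 to 91180759) was 4.59 ± 0.377 and 5.41 ± 0.279 FPKM in WT cells, called higher (log2 change 0.20, adjusted p = 0.0446), and 7.33 ± 0.771 and 7.07 ± 0.384 in KO cells. Its WT call was lost in 10 of 19 alternative settings, including median-of-ratios scaling (adjusted p = 0.0747) and each of WT control libraries 1 and 3, all WT SET siRNA libraries and both KO SET siRNA libraries left out (0.0525 to 0.139). IFIT3 was 1.30 ± 0.211 and 1.25 ± 0.301 FPKM in WT cells (adjusted p = 0.827) and IFIT2 did not exceed 0.393 FPKM in any library.

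The IFITM genes encode membrane proteins that block fusion of virus particles, and they lie together on chromosome 11. IFITM3 was 104, 92.3 and 89.2 FPKM in WT control and 67.0, 64.3 and 64.3 in WT SET siRNA libraries, and 110 and 91.6 against 76.5 and 75.9 in KO libraries. SET siRNA libraries were lower in both lines without overlap (log2 change -0.54, adjusted p = 0.000274 in WT and -0.39, adjusted p = 0.0088 in KO). IFITM1 went from 1.83 ± 0.284 to 0.641 ± 0.209 FPKM in WT cells, 2.85-fold lower, and was 3.11 ± 0.113 and 2.34 ± 0.223 in KO cells (adjusted p = 0.105). IFITM2 fell from 33.5 ± 2.04 to 25.8 ± 2.42 FPKM in WT cells and was 37.5 ± 3.98 and 32.7 ± 3.53 in KO cells (adjusted p = 0.193). These 3 genes are close paralogs, so the split of reads among them is uncertain, and the authors' interval for IFITM1 reached a half-width of 110% of its value.

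The OAS enzymes make 2′-5′ oligoadenylates when they meet double-stranded RNA. OAS3 was 5.48, 5.57 and 5.33 FPKM in WT control and 3.54, 3.99 and 3.88 in WT SET siRNA libraries, and 2.06 and 1.88 against 1.96 and 1.8 in KO libraries. WT groups did not overlap (log2 change -0.43, SE 0.06, adjusted p = 0.00035) and KO groups did (-0.04, SE 0.08, adjusted p = 0.672). OASL, a family member without synthetase activity that supports RIG-I, went from 2.01 ± 0.272 to 1.01 ± 0.202 FPKM in WT cells (adjusted p = 0.00633). Its KO control libraries differed from each other, at 1.69 and 0.858 FPKM against 0.673 and 0.656 with SET siRNA, and the change was not called (adjusted p = 0.0782) but was once KO control library 2 was left out (0.0111) or with the replicate block (0.0405). OAS1 was 1.48 ± 0.156 and 1.18 ± 0.186 FPKM in WT cells (adjusted p = 0.0901), and OAS2 did not exceed 0.233 FPKM.

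The ISG15 system attaches and removes a ubiquitin-like tag. ISG15 itself was 16.8, 18 and 18.6 FPKM in WT control and 17.6, 15.8 and 18.1 in WT SET siRNA libraries, which overlap (adjusted p = 0.678). In KO libraries it was 16.2 and 12.3 with control and 11 and 9.9 with SET siRNA, a log2 change of -0.40 (SE 0.12, adjusted p = 0.0237). That call was lost without KO control library 1 (adjusted p = 0.112), KO SET siRNA library 1 (0.0508) or library 2 (0.128). HERC6, a HECT-type ligase, was 2.50, 2.96 and 2.62 FPKM against 1.84, 1.47 and 1.61 in WT libraries and 2.03 and 2.06 against 0.755 and 0.784 in KO libraries, with no overlap in either line. Its log2 changes were -0.48 (adjusted p = 0.000628) and -0.78 (adjusted p = 0.000303). USP18, which removes ISG15 and dampens the interferon receptor, went from 2.28 ± 0.238 to 1.68 ± 0.175 FPKM in WT and from 2.86 ± 0.428 to 1.98 ± 0.159 in KO cells (adjusted p = 0.0218 and 0.0274). Leaving out WT control library 2 or 3 or WT SET siRNA library 2 or 3 lost the WT call (adjusted p = 0.0522 to 0.0779), and leaving out KO control library 2 or either KO SET siRNA library lost the KO call (0.0604 to 0.163).

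Among the other effectors IFI6 was 16.8, 19.1 and 16.3 FPKM in WT control and 9.92, 6.66 and 7.04 in WT SET siRNA libraries, and 17.7 and 17.1 against 9.57 and 7.91 in KO libraries. Control libraries of both lines lay in one range and SET siRNA libraries in a lower one (log2 change -1.07, SE 0.13, adjusted p = 0.000127 in WT and -0.92, SE 0.16, adjusted p = 0.00199 in KO). IFI44 was 4.94, 6.18 and 5.71 FPKM against 3.27, 3.49 and 2.98 in WT and 1.08 and 1.02 against 0.356 and 0.544 in KO libraries. The 4 groups did not overlap, with all KO libraries under all WT libraries, and the KO fall (adjusted p = 0.00655) was lost without KO SET siRNA library 1 (0.0535). PARP9 was 5.99, 6.34 and 5.55 FPKM against 4.53, 3.82 and 3.86 in WT and 6.18 and 6.94 against 2.83 and 3.56 in KO libraries. It fell in both lines (log2 change -0.46, adjusted p = 0.00197 and -0.86, adjusted p = 0.000407), and it overlaps DTX3L by 339 bases in the files' loci, so reads there may not be separable.

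ISG20 was the 1 tested member that rose in both lines. It was 2.05, 2.31 and 3.10 FPKM in WT control and 6.33, 5.29 and 5.29 in WT SET siRNA libraries, and 4.49 and 3.40 against 9.92 and 8.14 in KO libraries. The log2 changes were 0.94 (SE 0.13, adjusted p = 0.000318) and 1.02 (SE 0.16, adjusted p = 0.0013), with no overlap between siRNAs in either line. TRIM21, a cytosolic antibody receptor and ubiquitin ligase, went from 16.5 ± 0.43 to 21.6 ± 1.49 FPKM in WT cells (log2 change 0.36, adjusted p = 0.00184) and was 11.8 ± 0.123 and 12.6 ± 1.62 in KO cells (adjusted p = 0.471). PLSCR1, a scramblase, was 9.16 ± 0.518 and 10.2 ± 0.296 FPKM in WT cells, where its call (log2 change 0.14, adjusted p = 0.0439) was lost in 13 of 19 alternative settings with adjusted p up to 0.143, the replicate block included (0.0542).

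Whether the lines responded unequally to SET siRNA was tested as an interaction, the WT change minus the KO change. In limma 3 of the 24 genes were called, 1 positive and 2 negative, where 19.1% of all tested genes were called, 10.5% positive and 8.6% negative. STAT2 had an interaction of 0.52 (SE 0.08, adjusted p = 0.00415) and kept its call in each alternative setting that was run. IFIT1 had -0.49 (SE 0.13, adjusted p = 0.0341), a fall larger in WT cells, and OAS3 -0.38 (SE 0.10, adjusted p = 0.0258). Leaving out WT control library 2 or 3, WT SET siRNA library 2 or 3, KO SET siRNA library 1 or either KO control library ended the IFIT1 call (adjusted p = 0.0534 to 0.127). For OAS3 the same held of WT control library 1 or 2, WT SET siRNA library 1, KO control library 2 and either KO SET siRNA library (0.0542 to 0.106). For the 10 other genes called in 1 line alone no difference between lines was shown, among them DDX58 at 0.33 (SE 0.11, adjusted p = 0.0594), IRF9 at 0.41 (adjusted p = 0.0715, and 0.0318 with the replicate block) and IFITM1 at -0.49 (SE 0.17, adjusted p = 0.076).

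The comparison of the lines under control siRNA asked how the KO line differs from the WT line before SET is reduced. IFI44 was 5.33-fold lower in KO cells (1.05 ± 0.0422 against 5.61 ± 0.628 FPKM, n = 2 and 3) and OAS3 2.78-fold lower (1.97 ± 0.13 against 5.46 ± 0.12). IFIT1 was 2.31-fold higher (13.9 ± 0.903 against 6.02 ± 0.324), and IFITM1 and IFIT5 1.7-fold and 1.6-fold higher. In limma 11 of 24 genes were lower, 4 higher and 9 not called, where 47.9% of all tested genes were called, 22.2% lower and 25.7% higher. The 11 include DDX60, which passed the filter only through the WT control libraries, and OAS1 and IFIT3, which passed only through WT libraries. KO control libraries held 0.742 and 0.774 FPKM of OAS1 and 0.51 and 0.862 of IFIT3, so these calls are not independent of the filter. The log2 differences were -1.68 for IFI44 (SE 0.10, adjusted p = 3.34e-06), -1.12 for OAS3 (SE 0.07, adjusted p = 3.87e-06) and 1.09 for IFIT1 (SE 0.09, adjusted p = 3.05e-05). IFI6 was the same to 3 digits, 17.4 ± 1.49 and 17.4 ± 0.455 FPKM (adjusted p = 0.987). This comparison shares its control libraries with both siRNA comparisons. The 11 lower genes became 7 with array weights. ISG20 was no longer called without KO control library 1 (adjusted p = 0.132) or WT control library 1 (0.0606) or 2 (0.0512), and those of IFIT3, OASL, ISG15 and HERC6 without at least 1 library each, among them KO control library 1 for IFIT3 (0.165, and 0.0638 with the replicate block) and KO control library 2 for OASL (0.432), ISG15 (0.335) and HERC6 (0.0916).

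Under SET siRNA 13 of 24 genes were lower and 5 higher in KO than in WT cells, where 48.4% of all tested genes were called, 24.8% lower and 23.6% higher. The 13 include DDX60 and OAS1, which passed the filter only through WT libraries, so these calls are not independent of it. The 4 genes higher with control siRNA, IFIT1, IFIT5, IFITM1 and ISG20, were higher here too, and 9 of the 11 lower genes were lower here too, IFIT3 and OASL not being called. How many of all tested genes kept their line difference under both siRNAs was not counted, so these counts have no baseline. IFI44 was 7.21-fold lower and IFIT1 3.91-fold higher. STAT2 was 1.56-fold lower (log2 difference -0.60, SE 0.06, adjusted p = 3.73e-05), IFIH1 2.09-fold lower and DDX58 1.72-fold lower, so all 3 tested RNA sensors and all 3 tested signalling factors were lower in KO cells with SET siRNA. Of these the IRF9 call (adjusted p = 0.0408) was lost without WT SET siRNA library 1 (0.117) or 2 (0.0835) or either KO SET siRNA library (0.219 and 0.0719). The 5 higher genes became 3 without KO SET siRNA library 1, where IFITM2 (adjusted p = 0.191) and ISG20 (0.0849) lost their calls. IFIT5 lost its call without KO SET siRNA library 2 (adjusted p = 0.0748), IFITM2 also without WT SET siRNA library 1 (0.0684), and OAS1 without either KO SET siRNA library (0.0755 and 0.0513). PARP9 (adjusted p = 0.0436) lost its call in 9 of 19 alternative settings, with adjusted p up to 0.332 without KO SET siRNA library 1.

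**Figure D4:**
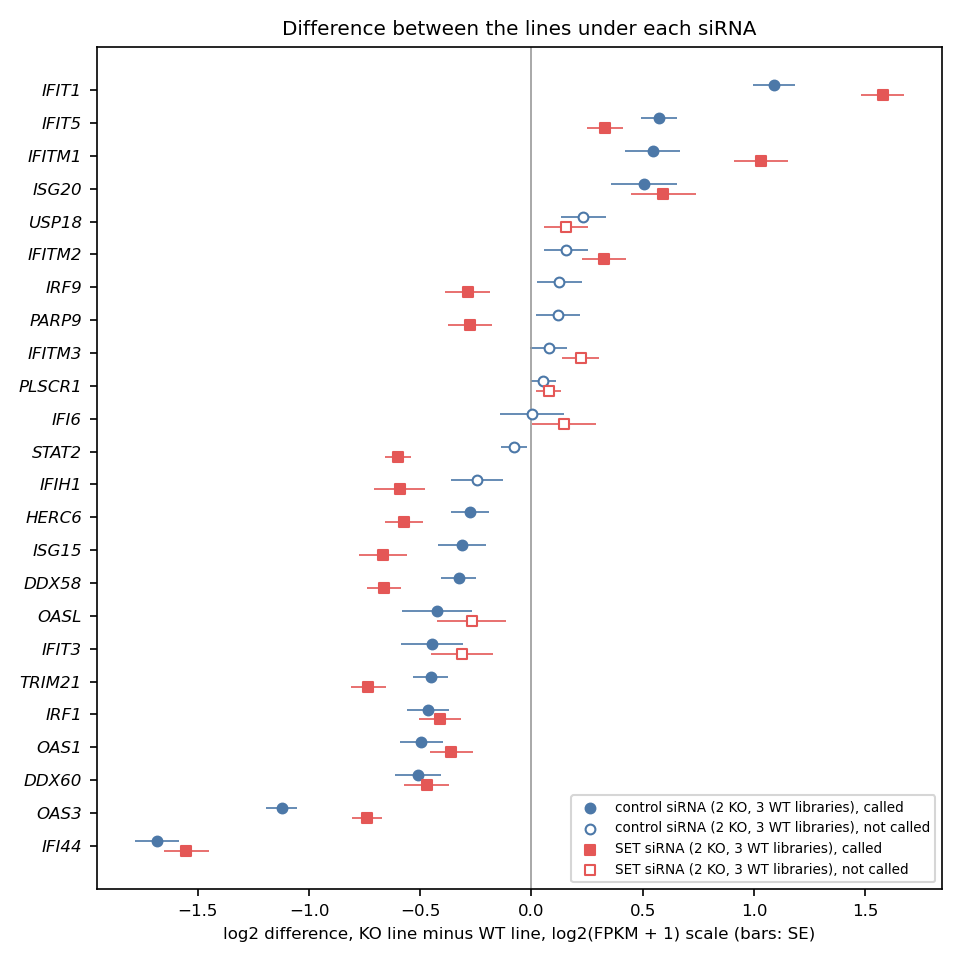
Log2 difference between the KO and WT lines on the log2(FPKM + 1) scale (x axis, bars are SE) for the 24 tested genes (rows) with control siRNA (blue circles) and SET siRNA (red squares); filled symbols were called and open symbols were not. IFI44 and OAS3 lie far to the left and IFIT1 far to the right under both siRNAs, and STAT2 is near 0 with control siRNA and at -0.60 with SET siRNA.

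The rest of the pathway was read from lists of ligands, receptors, signal transducers, sensors, negative regulators and further interferon-induced genes. With SET siRNA 30.8% of all tested genes rose and 24.0% fell in WT cells (54.8% called), and 19.8% rose and 17.9% fell in KO cells (37.6% called). All 6 receptor chains were expressed, and with SET siRNA 3 rose and 1 fell in WT cells and 1 rose and 2 fell in KO cells, a called share of 66.7% and 50%. The lambda receptor chain IL28RA rose in both lines, from 3.06 to 4.55 FPKM (log2 change 0.45, adjusted p = 0.000664) and from 3.41 to 5.71 (0.61, adjusted p = 0.000877). Of 11 tested signal transducers 4 rose and 4 fell in WT and 1 rose and 4 fell in KO cells. IRF2, an ISRE-binding repressor, fell by 0.55 and 0.75 on the log2 scale, and TBK1, the kinase of IRF3, rose by 0.61 in WT cells (adjusted p = 1.88e-05).

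Of 9 tested negative regulators 1 rose and 3 fell in WT cells and 1 rose and 1 fell in KO cells, a called share of 44.4% and 22.2% against 54.8% and 37.6% of all tested genes. SOCS3, an inhibitor of cytokine receptor signalling, fell from 13.7 to 7.16 FPKM in WT cells (log2 change -0.85, adjusted p = 2.8e-05) and its response differed from that in KO cells (interaction -0.79, adjusted p = 0.00403). Of 10 tested sensors and adaptors outside the 38 genes 4 rose and 1 fell in WT cells, among them IFI16, a DNA sensor, with a log2 change of 0.40 (adjusted p = 0.000429). In KO cells 1 rose and 1 fell.

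Of 36 tested further interferon-induced genes 13 rose and 12 fell in WT cells and 6 rose and 13 fell in KO cells, a called share of 69.4% and 52.8% against 54.8% and 37.6% of all tested genes. The largest rise and fall were SP110, a nuclear body protein, from 11.1 to 38.8 FPKM (log2 change 1.72, adjusted p = 1.08e-07), and UBE2L6, the conjugating enzyme for ISG15, from 27.1 to 10.2 FPKM (-1.33, adjusted p = 1.53e-06). In KO cells SP110 changed by 0.71 and UBE2L6 by -1.05 (adjusted p = 6.82e-05 and 5.04e-05). Between the lines TRIM22, an antiviral ligase and known p53 target, was 0.929 FPKM in KO against 15.5 in WT cells with control siRNA, and the cytidine deaminase APOBEC3C 25.6 against 66.7. Of these 36 genes 18 were lower and 5 higher in KO cells with control siRNA, where 22.2% of all tested genes were lower and 25.7% higher. Among the 36, SAMD9L passed the filter only through the WT control libraries and TRIM22 only through WT libraries. Any calls of theirs against those groups are not independent of the filter, and how many other genes this holds for was not counted. Of 4 tested genes that lean to interferon-gamma, GBP2 fell with SET siRNA in both lines by 0.33 and 0.70 on the log2 scale and GBP3 rose by 0.44 and 0.24.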

How the data were processed

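RNA was extracted with Trizol and libraries were made with a TruSeq kit, per the labels' protocols. Per the submitters' processing notes the tools were bcl2fastq 1.8.4, TopHat2 2.0.4 and Cufflinks 2.0.2. The deposited files hold FPKM per gene with the bounds of a confidence interval, per the file headers, and 1 file per library. For genome build, annotation and strand setting: not given in the sources used here. Loci are as in the files, with starts counted from 1. Of 25593 entries 45 repeated a symbol, and 3 to 12 genes per library had a failed status.

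Tests used the 14813 genes that reached an FPKM of 1 in 2 or more libraries (10780 did not), on log2(FPKM + 1), a scale that understates changes of low genes. With R 4.3.3 and limma 3.58.1, 1 model covered the 10 libraries as 4 groups (eBayes with trend), with Benjamini-Hochberg adjustment over all tested genes and a threshold of 0.05. Every adjusted p is from limma. Folds are ratios of mean FPKM. The fit was tested on simulated data with 200 changed genes.

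All 24 tested genes of the main list are reported. Of the 14 genes under the filter, BST2, CMPK2, IFI27 and IFI35 are not described above. BST2 and IFI27 reached an FPKM of 1 in 1 library each, and CMPK2 and IFI35 in none. With no filter none of BST2, CMPK2, IFI27 and IFI35 was called in any comparison. Of the 14, MX2 was called lower with SET siRNA in WT cells with no filter (log2 change -0.15, adjusted p = 0.021 in limma). IFI44L was called lower with SET siRNA in both lines in that setting. From each other list at most 4 called genes with the largest change per comparison could be named. COL1A2, TWIST1, VIM, CD68, IFNE and SAMD9L were named after their values were seen. Some items are not reported here. The genes and lists were chosen with earlier results of these data known. Promoter sequences are from RefSeq (GRCh38.p14), and none was matched for IFIT2, IFITM2, OAS2, OASL, MX2, DHX58, USP18 and IRF7. Alternatives were pseudocount 0.1, no filter, a minimum of 5, median-of-ratios and quantile scaling, array weights, no trend, a replicate block, a fit of the compared groups alone and leaving out each library. Python 3.11.15 with pandas 2.3.3, numpy 2.4.6 and matplotlib 3.10.9 was used.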

Additional observations from a re-analysis of the deposited data

Results flagged for a closer look

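Responses to SET siRNA that differed between the lines were singled out by the interaction test in limma. STAT2 had an interaction of 0.521 on the log2 scale (WT minus KO, adjusted p = 0.00415), with WT SET siRNA libraries above WT control libraries in 3 of 3 cases and both KO SET siRNA libraries below both KO control libraries. IFIT1 had -0.489 (adjusted p = 0.0341) and OAS3 -0.384 (adjusted p = 0.0258), and both lost their calls when single libraries were left out. IFIT1 fell in all 5 SET siRNA libraries relative to every control library of its line, and OAS3 in the 3 WT libraries.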

How the results depend on the processing

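No member's called change reversed in any setting run, and 2068 of 2216 member values kept their side of the threshold, with 126 calls lost and 22 gained, of which 85 and 12 came from leaving out a library. With SET siRNA in WT cells the 7 rises became 4 with no filter, median-of-ratios scaling or quantile normalization and 4 to 7 with a library left out, and the 12 falls became 7 at a minimum FPKM of 5, where fewer genes are tested. In KO cells the 10 falls became 6 at that minimum and 6 to 10 with a library left out. Over all genes the 2926 rises and 2645 falls in KO cells became 1595 and 1607 with only the groups compared, and 1751 to 3087 and 1691 to 2729 with a library left out. For the interaction the 1 positive call became 2 with pseudocount 0.1, 2 with the replicate block and 1 to 2 with a library left out, and the 2 negative calls became 1 with no filter or array weights and 0 to 2 with a library left out (0 without KO SET siRNA library 1, KO control library 2 or WT control library 2). Over all genes 1557 positive and 1274 negative interactions became 619 to 2435 and 517 to 2152 with a library left out, the lowest without KO SET siRNA library 1 and the highest without KO control library 1. Between lines with control siRNA the 11 lower genes became 6 at a minimum FPKM of 5, 7 with array weights and 8 to 10 with a library left out, and the 3810 higher genes of all became 2479 to 3914, the lowest without KO control library 2. With SET siRNA the 5 higher genes became 3 to 6. The labels state no pairing by replicate number. Deviations of same-numbered libraries correlated at -0.0833, -0.0261 and 0.0728 between siRNAs in WT and 0.00325 in KO cells, at 0.217 and 0.228 between lines with control siRNA and at 0.0436 and 0.0674 with SET siRNA. Only 2 numbers are shared between the lines, so the numbers were not taken as pairs. With the replicate block 12 members fell and 6 rose in WT cells and 11 fell and 1 rose in KO cells. Between lines 10 were lower and 4 higher with control siRNA (IFIT3 lost its call) and 13 lower and 6 higher with SET siRNA (IFITM3 gained one, adjusted p = 0.0392). All-gene interactions with the block numbered 1825 positive and 1575 negative. The cause of these changes was not tested. Depth was not stated, so no limit of detection is given.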

Other observations

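Some genes under the FPKM minimum had low but separate values, given here because they were noticed after their values were seen. IFI44L, the neighbour of IFI44, was 0.469, 0.438 and 0.406 FPKM in WT control and 0.144, 0.0932 and 0.166 in WT SET siRNA libraries, and 0.219 and 0.567 against 0.0528 and 0.129 in KO libraries. With no filter its log2 changes were -0.34 in both lines (adjusted p = 0.0109 and 0.0394 in limma). UBA7, the activating enzyme for ISG15, was 0.382 to 0.636 FPKM in WT control and 0.151 to 0.208 in WT SET siRNA libraries, and 0.492 and 0.499 against 0.135 and 0.221 in KO libraries.

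TLR3, an endosomal sensor of double-stranded RNA, was 0.783 to 0.912 FPKM in WT control libraries and 0.26 and 0.182 in KO control libraries, and 0.58 to 1.04 against 0.0212 and 0 with SET siRNA. IRF5, a p53-inducible interferon factor, was 0.241 to 0.352 FPKM in WT control and 0.594 to 0.67 in WT SET siRNA libraries, against 0.127 and 0.097 and then 0.231 and 0.361 in KO libraries. GBP1, a guanylate-binding GTPase, was 0.669 to 0.986 FPKM in WT control and 0.165 to 0.265 in WT SET siRNA libraries.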
